A study of Arabidopsis thaliana with 7 samples.

Results

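The genes described here are CYP82C4 and 9 further genes of the Arabidopsis iron deficiency response, 10 of the 27655 genes counted, followed in wild-type (WT) seedlings and in seedlings of 2 mutant alleles of HOT3. CYP82C4 was chosen by its readout, since an earlier analysis of these libraries had placed it among the genes most strongly higher in hot3-3 than in hot3-2. The other 9, S8H, F6'H1, IRT1, FRO2, FIT, bHLH38, bHLH39, BTS and PYE, were added around it by name as known genes of iron acquisition and its regulation. All levels of CYP82C4 are therefore given as a description with no test, and so are the differences of all 10 genes between the alleles.

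HOT3 encodes eIF5B1, a translation initiation factor. Polyadenylated RNA was sequenced from Arabidopsis thaliana seedlings aged 18 days, kept at 23 °C under 16 h of light and 8 h of dark: WT, the accession Col-0 (n = 2), hot3-2 (n = 3) and hot3-3 (n = 2). Both mutants carry a T-DNA insertion in HOT3 in the Col-0 background, SALK_124251 for hot3-2 and SAIL_1147_G06 for hot3-3, and no other allele or treatment was named. Per the study's methods plants grew in soil or on Murashige and Skoog agar with sucrose, a medium that supplies iron. The sources used here do not say which of them these seedlings had, whether roots were harvested with the shoots, or whether replicates were separate cultures, so P values measure only the spread between these libraries, which may be technical. The 7 libraries held between 14090881 and 34696683 counted read pairs. HOT3 itself was at 170 ± 0.861 CPM (normalised read count, the count scaled by library size, mean ± SD) in WT, 89.2 ± 10.2 in hot3-2 and 233 ± 53.5 in hot3-3. The hot3-2 libraries all lay below WT, with a log2 fold change of -0.93 and an edgeR adjusted P of 0.000525, whereas the gene-level count was not lowered in hot3-3 and gives no check of that label.

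Iron in aerated soil is mostly insoluble ferric iron. Arabidopsis roots acidify the rhizosphere, release coumarins that mobilise and reduce iron, reduce ferric iron at the root surface with FRO2 and take up ferrous iron with the transporter IRT1. FIT, a basic helix-loop-helix (bHLH) transcription factor, forms heterodimers with the clade Ib factors bHLH38, bHLH39, bHLH100 and bHLH101 to activate IRT1 and FRO2. Upstream, clade IVc bHLH factors activate the clade Ib genes and PYE, and the E3 ligase BTS limits their activity. F6'H1 acts in the synthesis of scopoletin, and S8H hydroxylates scopoletin to fraxetin. The cytochrome P450 CYP82C4 hydroxylates fraxetin to sideretin, the most oxidised of the main root coumarins.

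The promoters of 6 of the genes are shown because their levels followed different patterns: CYP82C4, IRT1 and FRO2 were highest in hot3-3, bHLH38 and bHLH39 were highest in hot3-2, and BTS differed little between the alleles. Each run is the 250 bases before the annotated transcript start in the RefSeq annotation of TAIR10.1, 5′ to 3′ on the strand of the gene, in lower case with the E-box letters CANNTG, read on either strand, in capitals. The windows are chr4:15451738-15451987 (plus strand) for CYP82C4, chr4:10707094-10707343 (plus) for IRT1, chr1:208745-208994 (plus) for FRO2, chr3:21085246-21085495 (minus) for bHLH38, chr3:21087711-21087960 (minus) for bHLH39 and chr3:6273716-6273965 (plus) for BTS.
CYP82C4: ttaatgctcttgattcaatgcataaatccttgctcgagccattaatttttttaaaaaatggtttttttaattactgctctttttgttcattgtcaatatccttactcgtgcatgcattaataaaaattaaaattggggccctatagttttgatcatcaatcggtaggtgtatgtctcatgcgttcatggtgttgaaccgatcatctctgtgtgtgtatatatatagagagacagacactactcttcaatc
IRT1: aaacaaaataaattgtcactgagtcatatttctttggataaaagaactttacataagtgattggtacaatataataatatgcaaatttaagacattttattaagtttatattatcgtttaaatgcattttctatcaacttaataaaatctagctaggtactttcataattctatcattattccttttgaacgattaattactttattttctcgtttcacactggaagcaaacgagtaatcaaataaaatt
FRO2: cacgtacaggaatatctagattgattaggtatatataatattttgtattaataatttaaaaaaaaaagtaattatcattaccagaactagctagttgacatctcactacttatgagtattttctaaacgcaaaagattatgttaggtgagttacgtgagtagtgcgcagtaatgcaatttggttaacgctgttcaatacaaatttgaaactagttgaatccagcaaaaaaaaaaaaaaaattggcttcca
bHLH38: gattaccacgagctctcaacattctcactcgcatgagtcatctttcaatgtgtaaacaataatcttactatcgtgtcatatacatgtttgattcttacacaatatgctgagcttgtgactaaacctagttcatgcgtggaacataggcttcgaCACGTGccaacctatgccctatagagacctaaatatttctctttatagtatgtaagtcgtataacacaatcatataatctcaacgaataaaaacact
bHLH39: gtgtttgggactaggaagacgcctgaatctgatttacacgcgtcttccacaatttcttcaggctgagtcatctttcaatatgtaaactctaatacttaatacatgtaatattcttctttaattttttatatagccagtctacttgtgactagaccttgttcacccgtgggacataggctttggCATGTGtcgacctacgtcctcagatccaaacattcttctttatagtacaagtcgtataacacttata
BTS: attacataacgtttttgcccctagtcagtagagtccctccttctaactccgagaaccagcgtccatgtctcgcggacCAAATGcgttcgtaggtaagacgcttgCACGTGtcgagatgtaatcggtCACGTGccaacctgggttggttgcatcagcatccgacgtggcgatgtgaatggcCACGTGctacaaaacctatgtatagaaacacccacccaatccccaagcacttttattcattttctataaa
CANNTG, which includes the G-box CACGTG as a special case, was present in 55.3% of the 27443 promoters of protein-coding genes at this window length, and CACGTG in 6.49%. The windows of CYP82C4, IRT1 and FRO2 held neither. The bHLH38 window held 1 CACGTG, 97 bases before the start, the bHLH39 window 1 CANNTG that was CATGTG, and the BTS window 4 CANNTG, of which 3 were CACGTG at 146, 124 and 70 bases before the start. Among the 4 members not shown, S8H and FIT held 1 CANNTG each, F6'H1 held 3 and PYE held 0, none of them CACGTG. Of the other clade Ib genes, also highest in hot3-2, bHLH100 held 2 CANNTG, 1 of them CACGTG, and bHLH101 held 0. The peptide genes IMA1 and IMA2, with their highest mean levels in hot3-2 too, held 2 CANNTG each and 0 CACGTG. These are matches of letters and not binding sites.

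**Figure D1:**
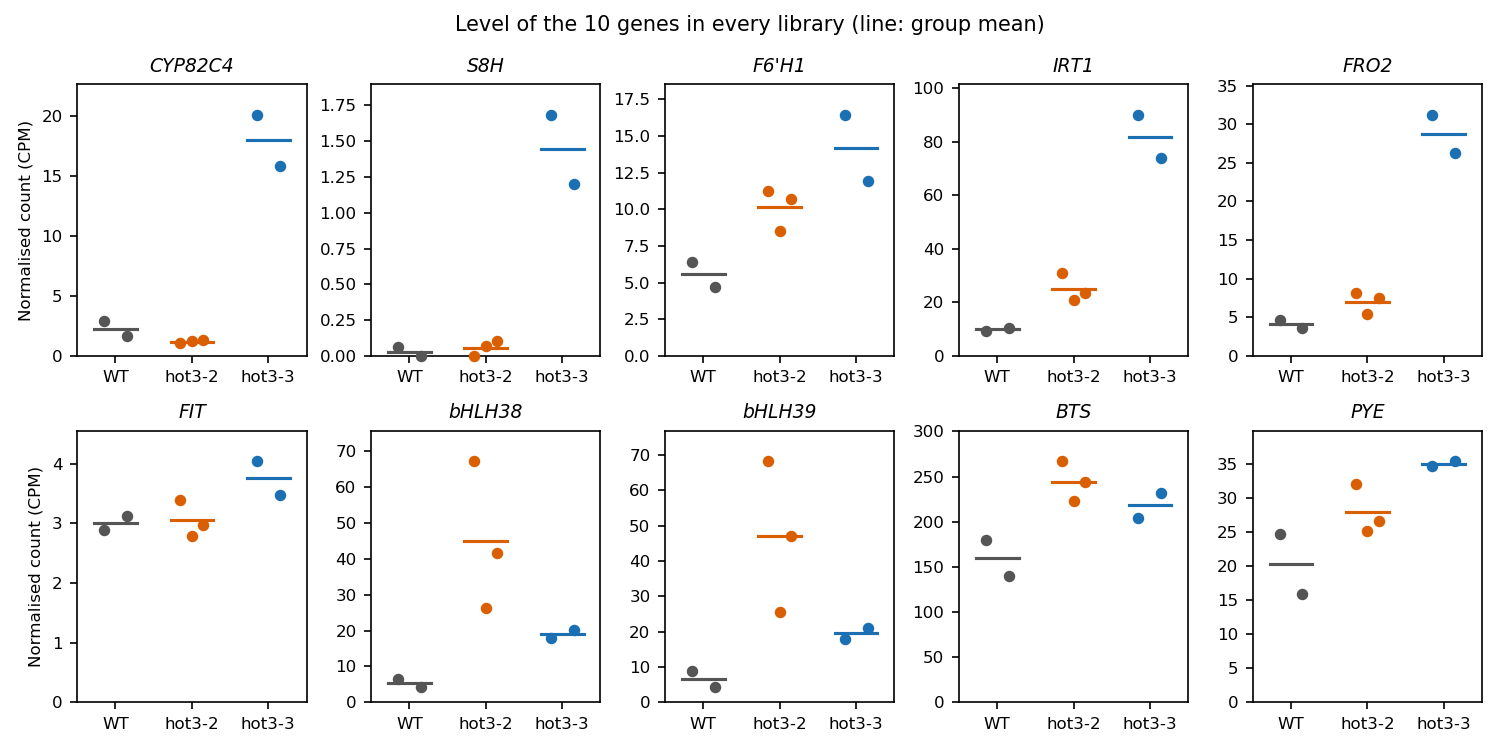
Normalised count (CPM, linear axis from 0) of each of the 10 genes in each of the 7 libraries, with a line at the group mean. CYP82C4, S8H, IRT1 and FRO2 stand highest in both hot3-3 libraries, whereas bHLH38 and bHLH39 stand highest in the 3 hot3-2 libraries.

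CYP82C4 (AT4G31940, chromosome 4, 15451988 to 15454224, plus strand in TAIR10.1) had its highest level in hot3-3 and its lowest in hot3-2. Its level was 2.89 and 1.64 CPM in WT, 1.08, 1.21 and 1.30 CPM in hot3-2, and 20.1 and 15.8 CPM in hot3-3. The 3 groups did not overlap, and hot3-2 and hot3-3 lay on opposite sides of WT. Group means were 2.26 ± 0.886 in WT, 1.20 ± 0.115 in hot3-2 and 17.9 ± 3.01 in hot3-3, from 17 to 47 counts per library in WT and hot3-2 and 417 and 554 counts in hot3-3. The fitted log2 difference was -0.89 ± 0.29 (SE) for hot3-2 against WT, 3.01 ± 0.24 for hot3-3 against WT and 3.90 ± 0.22 for hot3-3 against hot3-2. Leaving out each library in turn moved the difference between the alleles between 3.72 and 4.07, but that of hot3-2 from WT between -0.46 without WT replicate 1 and -1.31 without WT replicate 2.

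The CYP82C4 neighbours on chromosome 4, CYP82C2 and CYP82C3, share 93% and 92.7% of its aligned coding bases, with identical runs of at most 78 and 97 bases, so that read pairs from inside such runs could not be assigned uniquely. CYP82C2 (AT4G31970), an enzyme of the defence compound 4-hydroxyindole-3-carbonyl nitrile, had 10 and 8 counts in WT, 46, 10 and 29 counts in hot3-2, and 28 and 9 counts in hot3-3. CYP82C3 had at most 2 counts in any library. Neither copy came near the counts of CYP82C4 in hot3-3, and CYP82C2, which passed the filter on low counts only through hot3-2, was given no test. Its hot3-3 libraries lay on both sides of those of WT.

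S8H (AT3G12900, chromosome 3, 4104463 to 4106341, plus strand), the enzyme that makes fraxetin, was near the detection floor outside hot3-3. It had 1 and 0 counts in the WT libraries, 0, 1 and 2 counts in hot3-2, and 35 and 42 counts in hot3-3. Only the hot3-3 libraries exceeded the floor of 3 counts per library, at 1.68 and 1.20 CPM. Against that floor its mean level in hot3-3, taken as observed, was at least 8.76-fold higher than in WT and at least 8.65-fold higher than in hot3-2. These bounds cover counting error in WT and hot3-2 only, not that of the 35 and 42 counts in hot3-3. The gene passed the filter on low counts only through hot3-3 and was therefore given no test, and WT and hot3-2 were not compared.

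F6'H1 (AT3G13610, chromosome 3, 4449259 to 4450811, plus strand), which acts on feruloyl-CoA in the synthesis of scopoletin, rose in hot3-3. Its level was 6.40 and 4.72 CPM in WT, 11.3, 8.50 and 10.7 CPM in hot3-2, and 16.5 and 12.0 CPM in hot3-3. The groups were ordered WT, hot3-2, hot3-3 with no overlap, although the lowest hot3-3 library lay close to the highest hot3-2 library. The log2 fold change was 1.35 ± 0.21 in hot3-3 (edgeR adjusted P = 0.000697) and 0.89 ± 0.20 in hot3-2 (adjusted P = 0.00588), the latter under the fold limit. Calls required both an adjusted P under 0.01 and a log2 change of 1 or more in either direction. Without WT replicate 1 the hot3-2 value was 1.12 (adjusted P = 0.00758) and passed. Its annotation overlaps AT3G13620 on the other strand by 67 bases.

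IRT1 (AT4G19690, chromosome 4, 10707344 to 10709015, plus strand), the main root importer of ferrous iron, rose in both mutants and was highest in hot3-3. It had 9.41 and 10.6 CPM in WT, 31.1, 20.9 and 23.4 CPM in hot3-2, and 90.1 and 73.7 CPM in hot3-3. No library of one genotype overlapped with another genotype. In hot3-2 its log2 fold change was 1.33 ± 0.18 (edgeR adjusted P = 0.0003), in hot3-3 it was 3.03 ± 0.19 (adjusted P = 3.83e-06), and hot3-3 exceeded hot3-2 by 1.69 ± 0.15 on the log2 scale. Group means were 10.004 ± 0.838, 25.1 ± 5.31 and 81.9 ± 11.6 CPM in that order.

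FRO2 (AT1G01580, chromosome 1, 208995 to 213082, plus strand), the root ferric chelate reductase, rose in hot3-3. Its level was 4.61 and 3.56 CPM in WT, 8.13, 5.43 and 7.46 CPM in hot3-2, and 31.2 and 26.2 CPM in hot3-3. The order of the groups was the same as for IRT1, with no overlap. FRO2 changed by a log2 fold of 2.82 ± 0.20 in hot3-3 (edgeR adjusted P = 6.54e-06) and 0.81 ± 0.20 in hot3-2 (adjusted P = 0.00879, under the fold limit), and hot3-3 exceeded hot3-2 by 2.01 ± 0.16.

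FIT (AT2G28160, chromosome 2, 12004658 to 12006276, plus strand), the partner of the clade Ib factors at the IRT1 and FRO2 promoters, passed no test against WT. It had 2.89 and 3.13 CPM in WT, 3.40, 2.79 and 2.97 CPM in hot3-2, and 4.04 and 3.48 CPM in hot3-3. WT and hot3-2 overlapped, and both hot3-3 libraries lay just above the highest of the others. The log2 fold change was 0.03 ± 0.18 in hot3-2 (edgeR adjusted P = 0.916) and 0.31 ± 0.19 in hot3-3 (adjusted P = 0.204).

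bHLH38 (AT3G56970, chromosome 3, 21084035 to 21085245, minus strand), a clade Ib partner of FIT, rose in both mutants and, unlike IRT1, was highest in hot3-2. It had 6.46 and 4.24 CPM in WT, 67.1, 26.3 and 41.5 CPM in hot3-2, and 18.0 and 20.1 CPM in hot3-3. The order was WT, hot3-3, hot3-2 with no overlap, and the hot3-2 libraries spread most, 45.0 ± 20.6 CPM. Against WT the log2 fold change was 3.10 ± 0.39 in hot3-2 (edgeR adjusted P = 0.000186) and 1.86 ± 0.41 in hot3-3 (adjusted P = 0.00454), and hot3-3 lay below hot3-2 with a log2 difference of -1.25 ± 0.32. The call in hot3-3 was lost without WT replicate 1 (adjusted P = 0.0133), WT replicate 2 (0.0471) or hot3-3 replicate 2 (0.0139). Its annotation overlaps AT3G56960 on the other strand by 386 bases.

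bHLH39 (AT3G56980, chromosome 3, 21086390 to 21087710, minus strand), the adjacent clade Ib gene, rose in hot3-2. Its level was 8.86 and 4.48 CPM in WT, 68.3, 25.5 and 47.2 CPM in hot3-2, and 18.0 and 21.2 CPM in hot3-3. The libraries were ordered as for bHLH38, with no overlap between genotypes. Against WT bHLH39 had a log2 fold change of 2.86 ± 0.42 in hot3-2 (edgeR adjusted P = 0.000483) and 1.59 ± 0.44 in hot3-3 (adjusted P = 0.0147), which missed the threshold but passed it without hot3-2 replicate 1 (0.00878) or replicate 2 (0.00341), with no filter on low counts (0.00411) or in a fit of the compared genotypes alone (0.00927). The difference of hot3-3 from hot3-2 was -1.27 ± 0.36. The coding sequences of bHLH38 and bHLH39 were 84.8% identical with no identical run over 34 bases.

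BTS (AT3G18290, chromosome 3, 6273966 to 6280562, plus strand), the E3 ligase that restrains the response, was above WT in every mutant library but under the fold limit. It had 180 and 140 CPM in WT, 267, 223 and 244 CPM in hot3-2, and 204 and 232 CPM in hot3-3. The alleles overlapped. The log2 fold change was 0.61 ± 0.12 in hot3-2 (edgeR adjusted P = 0.00309) and 0.45 ± 0.13 in hot3-3 (adjusted P = 0.0202). PYE (AT3G47640, chromosome 3, 17567126 to 17569394, plus strand), a bHLH repressor of iron distribution genes, had 24.7 and 15.9 CPM in WT, 32.0, 25.1 and 26.5 CPM in hot3-2, and 34.6 and 35.3 CPM in hot3-3. WT replicate 1 lay just under the lowest hot3-2 library, and hot3-3 lay above all others. Its log2 fold change was 0.47 ± 0.17 in hot3-2 (adjusted P = 0.0457) and 0.79 ± 0.18 in hot3-3 (adjusted P = 0.00573), and the latter became 1.13 (adjusted P = 0.000465) and passed without WT replicate 1.

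Of the 8 members tested against WT (those other than CYP82C4 and S8H), 3 rose in hot3-2, IRT1, bHLH38 and bHLH39, where 7.8% of the 20795 genes tested were called higher and 3.88% lower. In hot3-3, 4 of the 8 rose, F6'H1, IRT1, FRO2 and bHLH38, where 9.63% of all genes were called higher and 4.91% lower. The median log2 fold change of the 8 was 0.85 in hot3-2 and 1.47 in hot3-3, beside 0.0013 and 0.011 over all genes. Since the 8 were chosen with earlier results of these data known, these counts and medians are a description only. Both comparisons share the WT libraries. Between the alleles every hot3-3 library lay above every hot3-2 library for 7 of the 10 members, CYP82C4, S8H, F6'H1, IRT1, FRO2, FIT and PYE, and below for 2, bHLH38 and bHLH39, with BTS overlapping. Over all genes tested this held for 22.6% above and 25.2% below, and 0.856% were called higher and 0.351% lower in hot3-3. CYP82C4 was chosen by this contrast, so nothing is read from these counts. Per kb of transcript the mean level in hot3-3 was 52.4 CPM for IRT1, 48.5 for BTS, 10.1 for FRO2, 9.52 for CYP82C4 and 1.02 for S8H.

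**Figure D2:**
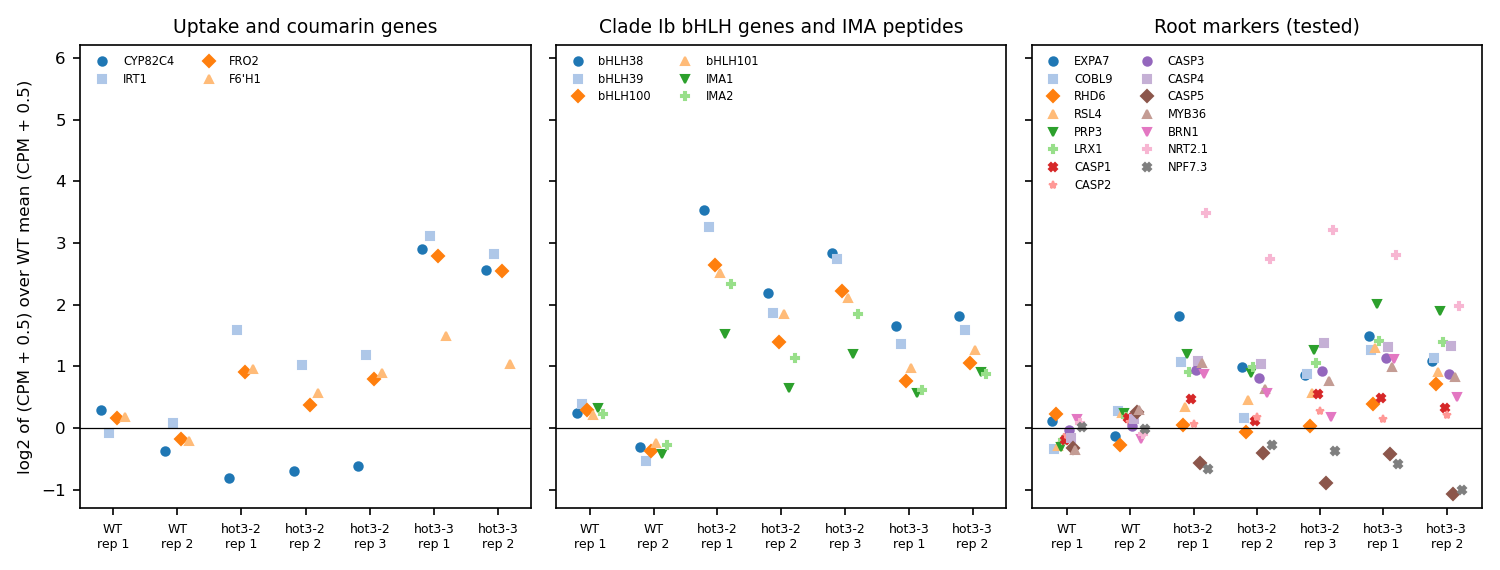
Log2 of (CPM + 0.5) over the WT mean of (CPM + 0.5) in each of the 7 libraries for CYP82C4, IRT1, FRO2 and F6'H1, for the 4 clade Ib bHLH genes with IMA1 and IMA2, and for the 15 root markers tested, 1 symbol per gene with the groups side by side. CYP82C4, IRT1, FRO2 and F6'H1 stand highest in hot3-3 and the 4 clade Ib genes in hot3-2.

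The 4 clade Ib genes and the peptide genes IMA1 and IMA2 had their highest mean levels in hot3-2. bHLH100 (AT2G41240) had 10.9 and 6.70 CPM in WT, 57.6, 23.9 and 43.0 CPM in hot3-2, and 15.3 and 18.8 CPM in hot3-3. bHLH101 (AT5G04150) had 10.9 and 7.85 CPM in WT, 56.2, 35.2 and 42.3 CPM in hot3-2, and 19.0 and 23.2 CPM in hot3-3. For both, the order WT, hot3-3, hot3-2 matched that of bHLH38 and bHLH39, and hot3-2 replicate 1 was the highest library and WT replicate 2 the lowest for all 4. In hot3-2 the log2 fold change was 2.27 ± 0.36 for bHLH100 (edgeR adjusted P = 0.000703) and 2.26 ± 0.22 for bHLH101 (adjusted P = 4.46e-05). In hot3-3 it was 0.98 ± 0.38 for bHLH100 (adjusted P = 0.055) and 1.19 ± 0.24 for bHLH101 (adjusted P = 0.00257), the call for bHLH101 being lost without WT replicate 2 (0.0272) or hot3-3 replicate 2 (0.0133). Without WT replicate 2 the hot3-2 call of bHLH100 was also lost (0.0102). The test between the alleles gave -1.29 ± 0.32 for bHLH100 (adjusted P = 0.038) and -1.08 ± 0.20 for bHLH101 (adjusted P = 0.0125), neither past the threshold. bHLH101 passed it under DESeq2 (-1.07, adjusted P = 1.44e-06). It also passed in edgeR with no filter on low counts (-1.08, adjusted P = 0.0023) or with the 2 genotypes alone (-1.07, 0.00962). Its log2 difference was -1.08 without WT replicate 1 and -1.07 without WT replicate 2.

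IMA1 (AT1G47400) and IMA2 (AT1G47395) encode short peptides that promote iron uptake, and their coding sequences were 88.9% identical. IMA2 had 25.7 and 18.0 CPM in WT, 112.6, 48.4 and 79.6 CPM in hot3-2, and 33.6 and 40.4 CPM in hot3-3. IMA1 had 21.3 and 12.4 CPM in WT, 49.3, 26.9 and 39.6 CPM in hot3-2, and 25.3 and 32.3 CPM in hot3-3. Both rose in hot3-2, IMA2 with a log2 fold change of 1.89 ± 0.32 (edgeR adjusted P = 0.00104) and IMA1 with 1.22 ± 0.28 (adjusted P = 0.00575), and neither passed in hot3-3 (0.77 ± 0.33 with 0.0788, and 0.79 ± 0.30 with 0.0494). IMA3 (AT2G30766), the remaining gene of the family on the list, did not share this order, with 74.6 and 44.5 CPM in WT, 71.3, 52.0 and 61.3 CPM in hot3-2, and 80.2 and 91.0 CPM in hot3-3. Both hot3-3 libraries of IMA3 lay above all others, and its log2 fold change was 0.06 ± 0.20 in hot3-2 (adjusted P = 0.839) and 0.53 ± 0.22 in hot3-3 (adjusted P = 0.0693), neither past the threshold. IMA3 was named after its values were seen. Both hot3-2 calls, of IMA1 and IMA2, were lost without WT replicate 2 (adjusted P of 0.014 for IMA2, 0.0558 for IMA1), and that of IMA1 also without hot3-2 replicate 1 (0.0256) or replicate 3 (0.0205).

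Over the wider list of 70 iron homeostasis genes, 62 were tested, and genes changed in both directions. In hot3-2, 7 rose and 3 fell, with a median log2 fold change of 0.06, and in hot3-3, 7 rose and 5 fell, with a median of 0.16. These are 11.3% higher and 4.84% lower in hot3-2, and 11.3% and 8.06% in hot3-3, near the shares over all genes (7.8% and 3.88%, 9.63% and 4.91%), so the counts say little of the list as a whole. Without WT replicate 2 the numbers that rose were 3 and 4, and without WT replicate 1 or hot3-3 replicate 2 the number that fell in hot3-3 was 3. Both CYP82C2 and MYB72 passed the filter on low counts only through mutant libraries. Between the alleles 1 gene was higher in hot3-3, BGLU21, and 0 were lower in edgeR, beside 0.856% and 0.351% of all genes. DESeq2 called 2 higher and 1 lower. At an unadjusted edgeR P below 0.05, 10 were higher and 14 lower. No share over all genes was computed at that level, so nothing is read from these counts.

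**Figure D3:**
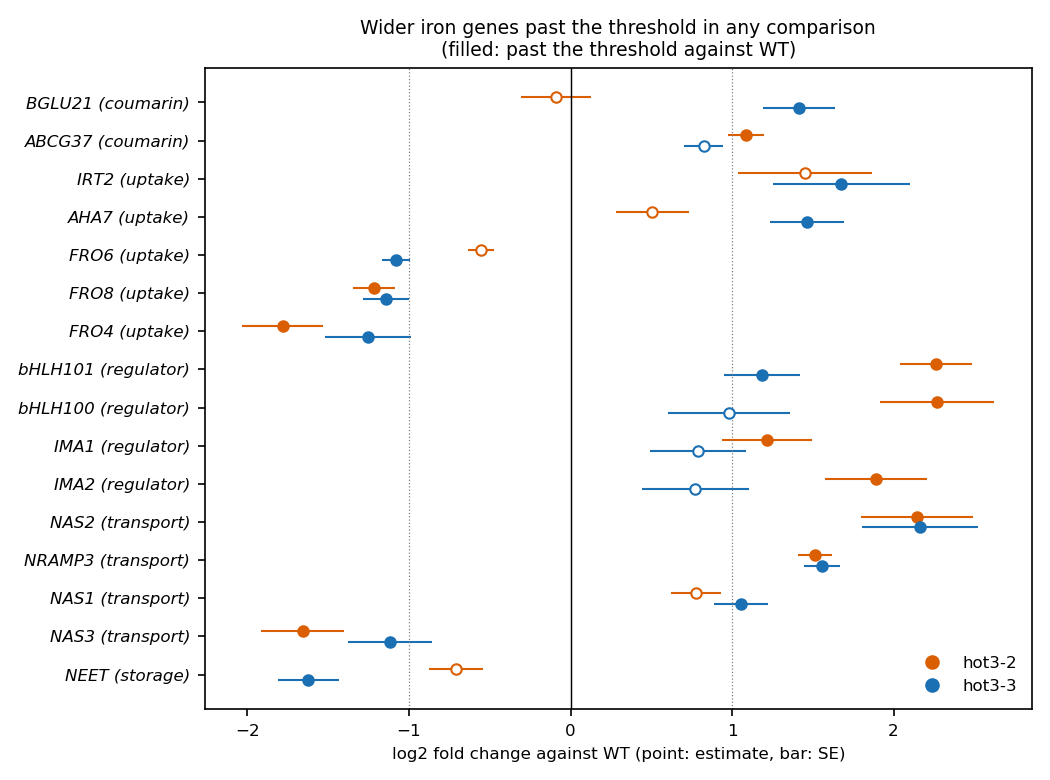
Log2 fold change against WT with its SE for hot3-2 (orange) and hot3-3 (blue) for the genes of the wider iron list past the threshold in any comparison, grouped by role, filled where past the threshold, with dotted lines at the fold limits. bHLH100, bHLH101, IMA1 and IMA2 lie further right in hot3-2, and FRO4, FRO6, FRO8, NAS3 and NEET lie left of 0 in both.

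Among the 12 coumarin genes tested, ABCG37 (AT3G53480), the exporter of coumarins from roots, rose in hot3-2. It had 18.3 and 20.8 CPM in WT, 43.3, 40.7 and 40.7 CPM in hot3-2, and 38.6 and 30.9 CPM in hot3-3. Every mutant library exceeded WT. The log2 fold change was 1.09 ± 0.11 in hot3-2 (edgeR adjusted P = 5.76e-05) and 0.82 ± 0.12 in hot3-3 (adjusted P = 0.000407, under the fold limit). BGLU21 (AT1G66270), a beta-glucosidase that cleaves scopolin to scopoletin, rose in hot3-3. It had 10.1 and 18.9 CPM in WT, 15.3, 12.1 and 13.7 CPM in hot3-2, and 39.2 and 39.1 CPM in hot3-3. WT and hot3-2 overlapped and hot3-3 stood above both. Its log2 fold change was 1.41 ± 0.22 in hot3-3 (adjusted P = 0.000715) and -0.09 ± 0.22 in hot3-2 (adjusted P = 0.755), and the difference between the alleles was 1.50 ± 0.20 (adjusted P = 0.00341). That last call was lost without hot3-2 replicate 1 (0.0167), 2 (0.0174) or 3 (0.0296) or without hot3-3 replicate 2 (0.0115).

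Of the 10 further uptake genes tested, 2 rose and 3 fell in hot3-3, and 2 fell in hot3-2, where the shares over all genes were 9.63% higher and 4.91% lower, and 3.88% lower. AHA7 (AT3G60330), a plasma membrane proton pump of the iron response, had 1.78 and 2.55 CPM in WT, 3.61, 2.79 and 2.87 CPM in hot3-2, and 6.64 and 5.54 CPM in hot3-3. Its order WT, hot3-2, hot3-3 without overlap was that of IRT1, and the log2 fold change in hot3-3 was 1.46 ± 0.23 (edgeR adjusted P = 0.000666), beside 0.51 ± 0.23 in hot3-2 (0.0929). IRT2 (AT4G19680), a relative of IRT1, was low throughout, at 0.492 and 0.723 CPM in WT, 2.41, 1.0 and 1.51 CPM in hot3-2, and 2.12 and 1.88 CPM in hot3-3. Its log2 fold change was 1.68 ± 0.42 in hot3-3 (adjusted P = 0.00918), a call lost without any one of WT replicate 1 (0.0515), WT replicate 2 (0.0291), hot3-2 replicate 3 (0.017) or hot3-3 replicate 1 (0.0271) or 2 (0.0228). In the other direction, 3 relatives of FRO2 fell. FRO4, a copper and ferric reductase, was at 15.4 ± 4.88 CPM in WT, 4.46 ± 1.45 in hot3-2 and 6.52 ± 0.453 in hot3-3, and fell by 1.78 (adjusted P = 0.000383) and by 1.25 (adjusted P = 0.0037) on the log2 scale, the second call being lost without WT replicate 2 (0.0304) or hot3-3 replicate 2 (0.0187). FRO8, a mitochondrial family member, was at 70.0 ± 13.8, 30.2 ± 3.62 and 31.6 ± 1.37 CPM and fell by 1.21 (7.72e-05) and 1.14 (0.000184), the latter -0.93 and under the fold limit without WT replicate 1. FRO6, a family member expressed in shoots, was at 92.0 ± 3.06, 62.7 ± 2.75 and 43.4 ± 3.07 CPM and fell in hot3-3, by 1.08 (adjusted P = 1.34e-05).

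Of the 15 transport genes tested, 2 rose in hot3-2 and 3 in hot3-3, and 1 fell in each (13.3% and 20% higher, beside 7.8% and 9.63% of all genes, and 6.67% lower, beside 3.88% and 4.91%). NRAMP3 (AT2G23150), which exports iron from the vacuole, had 11.8 and 11.5 CPM in WT, 35.02, 31.7 and 32.8 CPM in hot3-2, and 31.0 and 37.3 CPM in hot3-3. The alleles overlapped, and the log2 fold changes were 1.51 ± 0.11 (edgeR adjusted P = 7.55e-06) and 1.56 ± 0.11 (adjusted P = 7.08e-06). The nicotianamine synthases, which make the chelator for iron transport within the plant, were split. NAS2 was at 0.950 ± 0.0488 CPM in WT, 4.12 ± 1.54 in hot3-2 and 4.28 ± 0.353 in hot3-3, with log2 fold changes of 2.15 (adjusted P = 0.000833) and 2.16 (0.000945), both calls lost without WT replicate 2 (0.0103 and 0.0102). NAS1, at 75.1 ± 20.4, 128 ± 14.4 and 156 ± 5.77 CPM, rose in hot3-3 by 1.06 (adjusted P = 0.000769), which was 0.78 and under the fold limit without WT replicate 2. NAS3 was at 3.17 ± 0.392, 0.967 ± 0.268 and 1.45 ± 0.00840 CPM and fell by 1.66 (0.000657) and by 1.12 (0.00608) on the log2 scale, the second call being lost without any one of 5 libraries (both WT, hot3-2 replicate 3 and both hot3-3, adjusted P from 0.0126 to 0.0357), under DESeq2 (0.0199) or with the compared genotypes alone (0.011). Among the 11 storage and cofactor genes tested, NEET (AT5G51720), an iron-sulphur protein, was at 27.4 ± 5.40, 16.6 ± 1.29 and 8.72 ± 2.40 CPM and fell in hot3-3 by 1.62 (adjusted P = 0.000117). VTL2 (AT1G76800), a vacuolar iron transporter family gene, lies next to HOT3 on chromosome 1 (28829243 to 28830278, beside HOT3 at 28830902 to 28836748). It had 2.28 and 2.55 CPM in WT, 3.10, 3.00 and 3.76 CPM in hot3-2, and 2.503 and 1.94 CPM in hot3-3, and passed no test (adjusted P of 0.109 in hot3-2 and 0.625 in hot3-3).

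Most of these genes act in roots, and in whole seedlings fewer cells of a type and less RNA per cell cannot be told apart. Of 17 root markers, 15 were tested, 6 of which were called higher in hot3-2 and 7 in hot3-3 (40% and 46.7%, beside 7.8% and 9.63% of all genes). The numbers were 2 without WT replicate 1 and 4 without hot3-3 replicate 1, respectively. Of the 15, 4 would not have passed the filter on low counts through WT, so they could be tested only because of the mutants. Among the other 11, 5 rose in hot3-2 and 5 in hot3-3, with a median log2 fold change of 1.04 and 1.26. The summed root marker level was 74.4 and 80.7 CPM in WT, between 85.2 and 92.3 CPM in hot3-2, and 97.1 and 80.7 CPM in hot3-3. NPF7.3, a nitrate transporter of root vasculature, made up 50.3 and 49.4 CPM of the WT sums and was lower in the mutants, at 31.4, 41.1 and 38.4 CPM in hot3-2 and 33.1 and 24.5 CPM in hot3-3. Without it, a sum taken after the values were seen, the root markers came to 24.2 and 31.3 CPM in WT, 56.4, 44.2 and 53.9 CPM in hot3-2, and 64.0 and 56.2 CPM in hot3-3, every mutant library above WT. NRT2.1, among the 4 markers that would not have passed the filter through WT, stayed in this sum. It had 0.123 and 0.0482 CPM in WT, 6.07, 3.43 and 4.91 CPM in hot3-2, and 3.61 and 1.80 CPM in hot3-3. CASP5, of the same family as CASP1, was low and lay below WT in every mutant library. It had 0.861 and 1.54 CPM in WT, 0.645, 0.786 and 0.417 CPM in hot3-2, and 0.770 and 0.314 CPM in hot3-3. CASP5 and NPF7.3 were the 2 tested markers with negative log2 fold changes, in both mutants. The defining endodermis marker CASP1 was at 10.003 ± 1.79 CPM in WT, 13.3 ± 2.09 in hot3-2 and 13.5 ± 1.17 in hot3-3, and the root hair markers EXPA7 (1.15, 3.53 and 3.58 CPM) and COBL9 (0.910, 1.87 and 2.74 CPM) were also above 0 in every library, so root RNA was present. The only marker at 0 in any library was BRN2, in WT replicate 2. The ratio of IRT1 to CASP1 was 0.940 and 1.08 in the WT libraries. In the hot3-2 libraries it was 2.21, 1.91 and 1.57 and in the hot3-3 libraries 6.30 and 5.83, without overlap between genotypes. That ratio rests on a single marker, and the markers changed unequally. In hot3-2 the log2 fold change was 0.41 for CASP1 and 1.33 for IRT1. It was 1.66 for EXPA7, 1.53 for CASP4, 0.18 for CASP2 and -1.01 for CASP5. Ratios of IRT1 to these other markers were not taken. The part of the root markers in the changes of the iron genes was not tested.

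**Figure D4:**
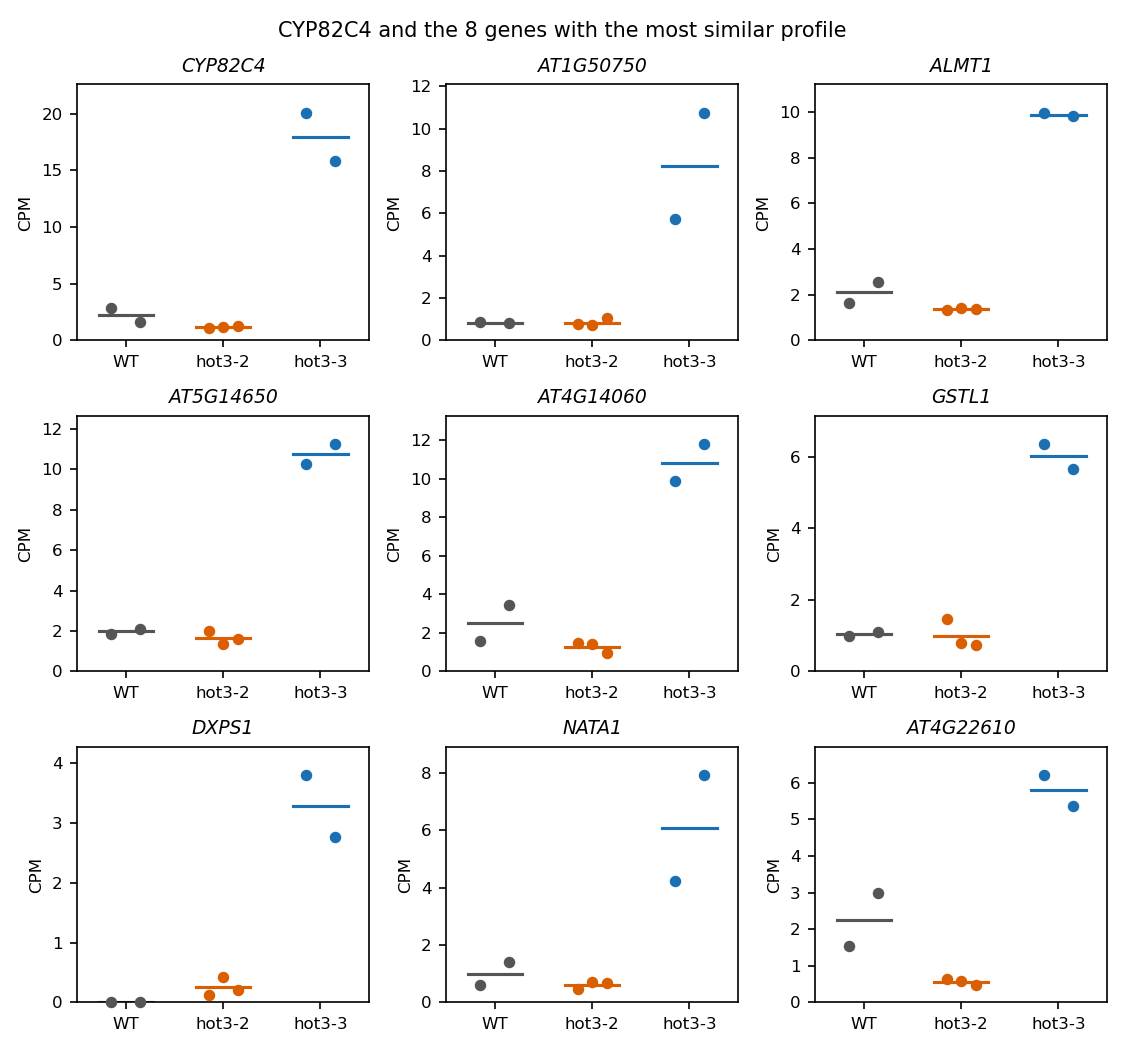
Normalised count (CPM, linear axis from 0) in each of the 7 libraries of CYP82C4 and the 8 genes whose profile lay nearest to it, with a line at the group mean. In all 9 the hot3-3 libraries stand above those of WT and hot3-2.

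The genes whose profile was most like that of CYP82C4 were found by the root mean square distance between centred log2(CPM + 0.5) values over the 7 libraries, among 19279 genes with a mean of at least 1 CPM. The 8 nearest were AT1G50750 (distance 0.515), ALMT1 (0.520), AT5G14650 (0.521), AT4G14060 (0.598), GSTL1 (0.625), DXPS1 (0.625), NATA1 (0.630) and AT4G22610 (0.708). ALMT1, a root malate exporter, had 1.66 and 2.55 CPM in WT, 1.33, 1.43 and 1.36 CPM in hot3-2, and 9.96 and 9.82 CPM in hot3-3. GSTL1, a lambda class glutathione transferase, had 0.984 and 1.11 CPM in WT, 1.46, 0.786 and 0.731 CPM in hot3-2, and 6.35 and 5.65 CPM in hot3-3. DXPS1 had 0 counts in both WT libraries, 3, 6 and 4 counts in hot3-2 and 79 and 97 counts in hot3-3. These values describe the choice by profile and carry no test. FRO2 was the nearest of the other members, at rank 13 with a distance of 0.729, and IRT1 had rank 68 with 0.959. F6'H1, PYE, FIT and BTS had ranks 715, 1166, 2282 and 10587, and bHLH39 and bHLH38 had ranks 19166 and 19178, near the far end. S8H was under the minimum level.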

How the data were processed

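Polyadenylated RNA of 7 seedling libraries (WT, n = 2; hot3-2, n = 3; hot3-3, n = 2) was prepared from 4 µg of total RNA with a directional kit. The deposited tables hold raw read counts per gene, which the authors made by trimming with cutadapt 4.2, mapping to TAIR10 with STAR 2.7.10b and counting uniquely mapped pairs with featureCounts 2.0.3 (versions from the submitters' processing notes). The strand setting and annotation release were not given in the sources used here, so how pairs from overlapping genes were assigned is not known. Pairs that fit near-identical genes were not counted.

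Groups and replicate numbers came from the sample labels. The edgeR function filterByExpr with its minimum count of 10 left 20795 of 27655 genes, and all 7 libraries were fitted together by genotype in edgeR 4.0.16 (R 4.3.3) with TMM scaling and the quasi-likelihood F test. P values were adjusted by Benjamini-Hochberg over all tested genes. The study's threshold was used for calls, an adjusted P under 0.01 and a log2 change of 1 or more in either direction. SE came from the F statistic. Bounds divided the observed mean of the higher group by a floor of 3 counts per library, so they cover counting error of the lower group only. The scripts were tested on simulated data. Alternatives were DESeq2 1.42.0, RLE scaling, no filter, a fit of the compared genotypes alone, the replicate number as a block, a looser threshold and leaving out each library.

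The members and gene lists were chosen with earlier results of these data known, and the lists were written from general knowledge. Named were the 10 members, CYP82C2, CYP82C3, VTL2 and HOT3, up to 5 genes per iron list and 2 each for copper and zinc past the threshold in any comparison, by size of change, and the 8 genes nearest to CYP82C4. CSD2, IMA3, NPF7.3, NRT2.1, CASP2, CASP4 and CASP5 were added after their values were seen. S8H and CYP82C2 were left untested because they passed the filter only through hot3-3 and hot3-2, respectively. Coordinates and promoters are from RefSeq TAIR10.1, where 99.4% of 27445 matched genes had the exonic length given in the deposited tables.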

Additional observations from a re-analysis of the deposited data

Results flagged for a closer look

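CYP82C4 was flagged because hot3-2 and hot3-3 lay on opposite sides of WT, every hot3-2 library below and every hot3-3 library above, with a log2 difference of 3.90 between the alleles. That difference was not tested, since the gene was chosen by it. Among the 8 genes nearest to it in profile, ALMT1, AT4G14060 and AT4G22610 also had every hot3-2 library below WT and every hot3-3 library above. BGLU21 was flagged because its edgeR test between the alleles passed, with a log2 difference of 1.50 ± 0.20 (adjusted P = 0.00341) and both hot3-3 libraries above all 3 hot3-2 libraries. CSD2, the plastid copper/zinc superoxide dismutase, was flagged for the opposite direction, -1.16 ± 0.14 (adjusted P = 0.00238). It had 24.1 and 17.3 CPM in WT, 34.2, 28.9 and 31.4 CPM in hot3-2, and 14.5 and 13.8 CPM in hot3-3, and the call was lost without hot3-2 replicate 1 (0.0173) or replicate 3 (0.0192) or hot3-3 replicate 2 (0.0147).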

How the results depend on the processing

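Replicate numbers were not used to pair the libraries in the main fit. Deviations of same-numbered libraries from their group means correlated across genes with r from 0.0236 to 0.2189. Libraries of different numbers were not compared in this way, so these values cannot decide whether the numbers mark pairs. With the replicate block, 0 instead of 1 of the wider iron genes were higher in hot3-3 than in hot3-2 and, over all genes, 96 instead of 178 were higher and 58 instead of 73 lower. The block also ended the calls of BGLU21 between the alleles (adjusted P = 0.0138), IRT2 (0.0124) and NAS3 (0.0118) in hot3-3 and ZIP3 in hot3-2 (0.0394), and bHLH39 in hot3-3 passed (0.00456), which would make 5 of the 8 members. Between the alleles 2 iron genes were higher under DESeq2, RLE scaling, no filter or a fit of the 2 genotypes alone, with a range of 0 to 2 when each library was left out. For lower in hot3-3 than in hot3-2, the count was 1 in place of 0 under DESeq2, no filter or the 2 genotypes alone (0 to 1 when leaving out libraries). At an adjusted P below 0.05 with no fold limit, 18 of the 62 iron genes tested were higher and 11 lower in hot3-2 against WT. In hot3-3 against WT 18 were higher and 15 lower, and between the alleles 6 were higher and 9 lower. Over all 20795 genes tested, this looser threshold called 5454 higher and 4814 lower in hot3-2, and 5612 and 5004 in hot3-3. Between the alleles it called 1010 of all genes higher and 927 lower. At the main threshold, leaving out each library gave 3 to 8 iron genes higher and 3 to 4 lower in hot3-2. In hot3-3 it gave 4 to 7 higher and 3 to 5 lower. Over all genes the allele comparison called 279 higher and 128 lower without the filter, 243 and 122 under DESeq2, 245 and 121 with the 2 genotypes alone, and as few as 31 and 15 without hot3-2 replicate 3. Leaving out each library turned the direction of 8 differences that were uncalled or untested. Against WT these were BGLU21 in hot3-2 (-0.45 to 0.41), FIT in hot3-2 (-0.0893 to 0.082), AT1G50750 in hot3-2 (-0.16 to 0.10), GSTL1 in hot3-2 (-0.50 to 0.16), CYP82C2 in hot3-3 (-0.91 to 1.45) and VTL2 in hot3-3 (-0.32 to 0.0478), and between the alleles NAS2 (-0.18 to 0.37) and NRAMP3 (-0.10 to 0.17). The causes were not tested.

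With 2 or 3 libraries per genotype, single libraries decided several calls near the threshold. The 2 WT libraries, the reference of both mutants, differed most from each other. Their chi-square per gene between replicates was 18.55, beside 11.64 in hot3-3 and 2.54 to 7.52 in hot3-2. S8H outside hot3-3 and CYP82C3 in every library were under the floor of 3 counts, which limits what can be said of their order. CYP82C2 had between 8 and 46 counts per library and spread widely, with 28 and 9 in hot3-3. Iron content, coumarins and proteins were not measured.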

Other observations

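Copper and zinc genes were followed beside the iron genes because the metals share transporters and chelators. Of 7 copper genes, all tested, 3 rose in hot3-2 and 1 in hot3-3 (42.9% and 14.3%, beside 7.8% and 9.63% of all genes). CSD1 (AT1G08830), the cytosolic copper/zinc superoxide dismutase, had 27.9 and 23.9 CPM in WT, 77.3, 63.3 and 70.1 CPM in hot3-2, and 34.9 and 37.3 CPM in hot3-3. Like the clade Ib bHLH genes it was ordered WT, hot3-3, hot3-2 without overlap, with log2 fold changes of 1.44 ± 0.11 in hot3-2 (edgeR adjusted P = 1.11e-05) and 0.48 ± 0.12 in hot3-3 (adjusted P = 0.0074, under the fold limit). COPT2 (AT3G46900), a copper importer, was ordered like IRT1, with 13.2 and 10.9 CPM in WT, 25.8, 22.4 and 24.4 CPM in hot3-2, and 42.0 and 36.9 CPM in hot3-3. Its log2 fold change was 1.72 ± 0.12 in hot3-3 (adjusted P = 6.71e-06) and 1.02 ± 0.12 in hot3-2 (adjusted P = 0.000113), the latter below the fold limit with DESeq2, RLE scaling or the 2 genotypes alone and without WT replicate 2 (0.84) or hot3-2 replicate 1 (0.94).

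Of 8 zinc genes, 6 were tested and 2 rose in hot3-2 (33.3%, beside 7.8% of all genes). ZIP5 (AT1G05300), a ZIP family transporter, had 11.6 and 9.15 CPM in WT, 25.4, 20.6 and 23.0 CPM in hot3-2, and 11.3 and 12.5 CPM in hot3-3, so that WT and hot3-3 overlapped. Its log2 fold change in hot3-2 was 1.16 ± 0.14 (edgeR adjusted P = 0.000132), and 0.95 without WT replicate 2. ZIP3 (AT2G32270) was at 1.71 ± 0.508 CPM in WT, 3.52 ± 0.760 in hot3-2 and 3.28 ± 0.196 in hot3-3, with a log2 fold change of 1.04 ± 0.26 in hot3-2 (adjusted P = 0.00937), a call lost without any one of 6 libraries, all but hot3-2 replicate 2 (adjusted P from 0.0109 to 0.059) or with the 2 genotypes alone (0.0113).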
